A study of Mus musculus with 12 samples.

Results

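The Rbfox, Mbnl, Ptbp and Celf genes encode RNA-binding proteins that set tissue-specific splicing. A set of 10 was followed here through gene totals in mouse facial mesenchyme: Rbfox1, Rbfox2, Mbnl1, Mbnl2, Mbnl3, Ptbp1, Ptbp2, Ptbp3, Celf1 and Celf2. They were taken by symbol from the deposited tables, and all 10 were found among 53392 gene identifiers. The libraries were 12, in 4 groups of 3. The palatal shelf mesenchyme was dissected at embryonic day E13.5 from wild-type embryos (Pdgfra+/+) and from embryos homozygous for the PdgfraPI3K allele. That allele is a knock-in that changes the PI3K-binding tyrosines of the receptor PDGFRα and is carried by every cell of the embryo. The maxillary process mesenchyme, from which the palatal shelves grow, was dissected at embryonic day E11.5. Both of its groups were homozygous for a floxed Srsf3 allele. The controls lacked the Wnt1-Cre transgene, and the embryos of the group labelled Srsf3 cKO (the cKO-labelled libraries) carried it. Wnt1-Cre recombines in the neural crest lineage and not in blood vessel or blood cells, so these cells of the dissected tissue keep the floxed gene. The strain background is given as 129S4, the ectoderm was digested with trypsin, and polyadenylated RNA was sequenced.

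PTB proteins bind pyrimidine-rich RNA and mostly repress exons. PTBP1 is the form of most dividing cells, and PTBP2 is the form of developing neurons. PTBP1 represses splicing of the Ptbp2 transcript, and the PTB genes limit their own output by skipping an exon whose loss exposes the transcript to nonsense-mediated decay. RBFOX proteins bind GCATG, MBNL proteins bind YGCY repeats and CELF proteins bind GU-rich RNA. Each favours or blocks an exon depending on where it binds, and MBNL and CELF proteins often act on the same exons in opposite directions as muscle and heart mature. RBFOX2 is the broadly expressed member of its family and acts in neural crest cells, whereas RBFOX1 is best known in neurons and muscle.

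The genes regulate one another and themselves through short alternative exons, and the sequences below are shown because gene totals cannot resolve them. They were read from the GENCODE M21 transcripts (build GRCm38, equal to mm10). Capitals mark the bases that differ from the first gene of each set, position by position.
Ptbp1 34-nt exon: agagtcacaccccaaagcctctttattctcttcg
Ptbp2 34-nt exon: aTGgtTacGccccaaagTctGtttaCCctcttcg
Mbnl1 54-nt exon: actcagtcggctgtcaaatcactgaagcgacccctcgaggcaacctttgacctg
Mbnl2 54-nt exon: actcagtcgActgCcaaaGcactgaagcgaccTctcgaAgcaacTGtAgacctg
Mbnl1 36-nt exon: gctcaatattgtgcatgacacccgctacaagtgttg
Mbnl2 36-nt exon: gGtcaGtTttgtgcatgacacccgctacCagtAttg
Mbnl3 36-nt exon: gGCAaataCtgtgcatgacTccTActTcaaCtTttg

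The 34-nt exon of Ptbp1 (chr10:79862014-79862047, plus strand) and that of Ptbp2 (chr3:119724612-119724645, minus strand) were identical at 26 of 34 bases. Each was present in 3 annotated coding transcripts and skipped in 2 transcripts annotated to nonsense-mediated decay, and in 0 coding ones. A 34-nt exon leaves a remainder of 1 when divided into codons of 3, so skipping it shifts the reading frame. The 54-nt exons of Mbnl1 (chr3:60614683-60614736, plus strand) and Mbnl2 (chr14:120395712-120395765, plus strand), which are known for retaining the protein in the nucleus, were identical at 46 of 54 bases. The 36-nt exons lie at chr3:60621423-60621458 in Mbnl1, chr14:120403336-120403371 in Mbnl2 and chrX:51126126-51126161 (minus strand) in Mbnl3. That of Mbnl2 shared 31 of 36 bases with Mbnl1 and that of Mbnl3 shared 26. Their lengths keep the reading frame, and coding transcripts with and without each of them are annotated. Going from full inclusion of the Ptbp1 34-nt exon to none would shorten its longest coding transcript by 0.02 on the log2 scale, and the corresponding values were 0.01 for the Ptbp2 exon and 0.01 to 0.02 for the MBNL exons.

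Library totals ran from 15.9 to 37.4 M estimated counts (M, megacounts) and were larger for the palatal shelf (30.5 to 37.4 M) than for the maxillary process (15.9 to 27.9 M). The defining mesenchyme genes were present in all 12 libraries, with summed TPM of Prrx1, Twist1, Pdgfra, Msx1, Tfap2a and Alx1 between 844.9 (library 1 of the cKO-labelled group) and 2073. The total of Srsf3 itself was not lower in the cKO-labelled libraries (log2 fold change 0.03, standard error 0.14, adjusted p = 0.9539, edgeR). A gene total cannot show whether floxed exons were lost, so every direction drawn from that label below rests on the label. The count/TPM ratio of Srsf3 is given with the transcript mix. A few libraries stood apart in markers of other cells. Control library 3 had 127.4 TPM over 10 neuron genes against 24.3 and 41.7 in the other controls, and 76.5 TPM over 6 forebrain progenitor genes against 12.8 and 13.2. Library 1 of the cKO-labelled group had 368.3 TPM over 6 endothelial genes against 211.2 and 183.1 in the others of its group. PI3K library 1 had 333.9 TPM over 10 skeletal muscle genes, more than any other library. In bulk tissue, fewer cells of a type and less RNA per cell cannot be told apart. The labels call the 3 libraries of a group biological replicates and do not say more of their source.

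The levels were first set in order within each group. TPM (a transcript abundance corrected for transcript length and library depth) allows genes to be compared within a library. Ptbp1, the general repressor, was the most abundant of the 10 in all 12 libraries. Its wild-type palatal shelf values were 479.6, 569.6 and 519.2 TPM, which placed it at rank 246 of 25577 genes with a value above 0. Rbfox2 followed there at 168 ± 5.1 TPM (SD, n = 3), and the lowest Ptbp1 value lay above the highest Rbfox2 value (171.2 TPM). Ptbp2 (77.6 TPM), Celf1 (73.0 TPM) and Mbnl2 (69.4 TPM) came next as means, and the ranges of neighbours in this trio overlapped. Ptbp3 (45.3 TPM) and Mbnl1 (45.2 TPM) overlapped as well. Celf2 had 20.0 ± 1.1, Mbnl3 13.8 ± 2.5 and Rbfox1 1.54 ± 0.55 TPM (SD, n = 3 each), and these 3 genes did not overlap with one another. In PI3K palatal shelves the order was the same except that Mbnl2 (73.4 TPM) and Celf1 (70.3 TPM), which overlapped, changed places.

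The maxillary process had another order below Ptbp1. In the controls Ptbp2 had the second highest mean, at 175, 175.5 and 151.8 TPM, and overlapped with Rbfox2 at 132.5, 147 and 168.4 TPM. Celf1 followed at 118.8 ± 10.1 TPM (SD, n = 3), above all values of Ptbp3 (41.5 TPM), Mbnl2 (31.2 TPM) and Mbnl1 (28.2 TPM). Celf2 (10.3 TPM) and Mbnl3 (10.2 TPM) overlapped, and Rbfox1 was lowest at 0.33 TPM. In the cKO-labelled libraries, Rbfox2 (141.7 TPM), Celf1 (129 TPM) and Ptbp2 (121 TPM) came after Ptbp1 (683.4 TPM), with overlap between neighbours. Rbfox1 was thus last in all 4 groups.

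**Figure D1:**
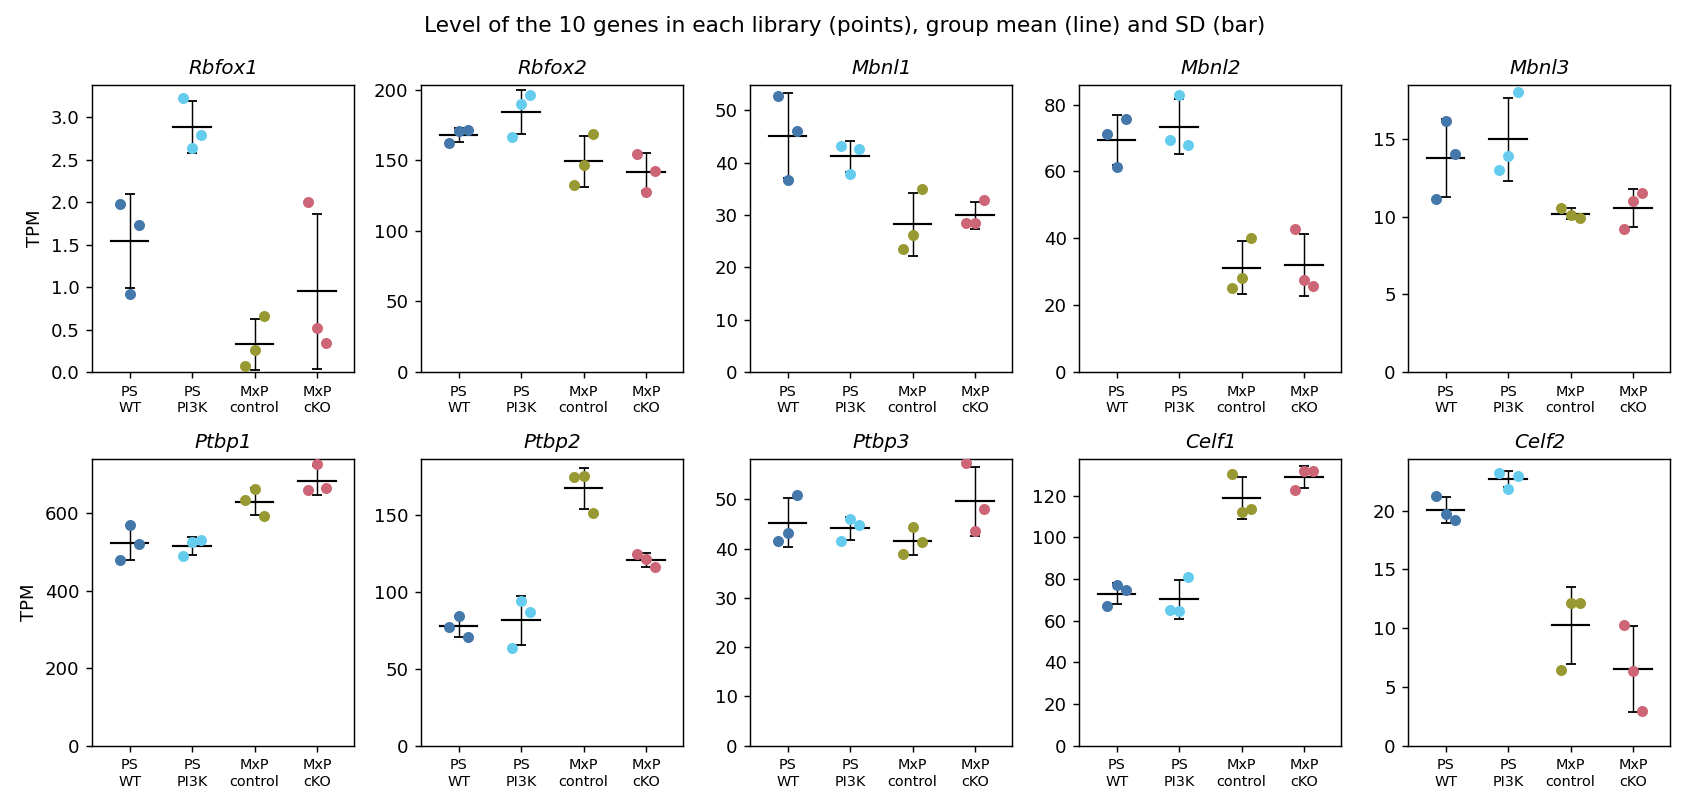
TPM (y axis, linear from 0) of each of the 10 genes in every library (points), with group mean (line) and SD (bar, n = 3), for palatal shelf (PS) wild-type and PI3K and maxillary process (MxP) control and Srsf3 cKO libraries. Ptbp2 and Celf1 sit higher in the maxillary process, Mbnl2 and Celf2 sit higher in the palatal shelf, and the Ptbp2 values of the cKO-labelled libraries (116.4 to 125 TPM) lie below those of the controls (151.8 to 175.5 TPM).

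The first genotype comparison asked how the PI3K allele of Pdgfra affects the palatal shelf. Of the 10 genes, 0 passed a false discovery rate of 0.05 (edgeR quasi-likelihood test, Benjamini-Hochberg over 16525 genes), where the share called among all genes was 0%. At an unadjusted p under 0.05 there were 2 of 10, Rbfox1 and Celf2, against 2.14% of all genes. DESeq2 also called 0 of the 10, and called 4 genes in all. The same 2 genes had groups that did not overlap in normalised counts, which held for 6.23% of all genes. The median log2 fold change of the 10 was 0.07, against -0.01 over all genes tested.

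Rbfox1 (ENSMUSG00000008658.16, chromosome 16, 5885355 to 7411526, plus strand) had 1.98, 0.915 and 1.73 TPM in wild-type and 3.22, 2.64 and 2.79 TPM in PI3K palatal shelves. All 3 PI3K values lay above all wild-type values. These rest on 95, 53 and 77 counts in wild-type and 145, 111 and 140 counts in PI3K libraries. The log2 fold change was 0.80 (standard error 0.31, 95% interval 0.07 to 1.54), with an adjusted p of 0.9997 (edgeR). RBFOX1 is best known in neurons and muscle. The summed TPM of 10 skeletal muscle genes was 81.0, 10.2 and 12.5 in wild-type and 333.9, 50.4 and 175.2 in PI3K libraries. That of 10 neuron genes was 41.5, 39.9 and 29.1 against 56.0, 28.2 and 42.7. The groups overlapped in both sums. PI3K library 1 was the highest palatal shelf library for Rbfox1 and for both sums. Without it the Rbfox1 log2 fold change was 0.68. The part of muscle cells or neurons in the Rbfox1 values was otherwise not tested.

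Celf2 (ENSMUSG00000002107.18, chromosome 2, 6539694 to 7509563, minus strand) had 21.3, 19.7 and 19.2 TPM in wild-type and 23.2, 21.9 and 23.0 TPM in PI3K libraries. The groups did not overlap but lay close together. The log2 fold change was 0.22 (standard error 0.09, 95% interval 0.02 to 0.42) and the adjusted p was 0.9997 (edgeR). For the other 8 genes the log2 fold changes ran from -0.11 (Mbnl1 and Celf1) to 0.10 (Mbnl2), and the groups overlapped. The narrowest 95% interval was that of Rbfox2, from -0.09 to 0.25, and the widest among these 8 was that of Mbnl1, from -0.48 to 0.26. Ptbp1 had a log2 fold change of -0.04 with an interval from -0.24 to 0.17, and Ptbp2 had 0.07 with an interval from -0.21 to 0.34. Intervals of this width do not show that the levels were alike.

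The second genotype comparison set maxillary processes with the Wnt1-Cre transgene, labelled Srsf3 cKO, against those without it. Again 0 of the 10 genes passed the threshold with edgeR, where 0.0842% of the 14254 genes tested did (12 genes). DESeq2 called 376 genes and 0 of the 10. At an unadjusted p under 0.05 there were 2 of 10, Ptbp2 and Rbfox1, against 12.2% of all genes, and 3 of 10 had groups that did not overlap in normalised counts, against 18.1% of all genes. The median log2 fold change of the 10 was 0.11 and that of all genes was 0.00.

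Ptbp2 (ENSMUSG00000028134.11, chromosome 3, 119718742 to 119784466, minus strand), the neural PTB gene, had 175, 175.5 and 151.8 TPM among controls and 125, 121.5 and 116.4 TPM in the cKO-labelled libraries. All 3 of the latter lay below all controls. In normalised counts the means were 208.3 ± 19.3 CPM and 160.1 ± 5.5 CPM (SD, n = 3 each). The log2 fold change was -0.38 (standard error 0.09, 95% interval -0.60 to -0.16). The adjusted p was 0.2506 (edgeR), so the difference did not pass over all genes. Leaving out 1 library at a time gave -0.45 to -0.33. Without control library 3, the one with the most neuron and forebrain transcripts, the value was -0.45. PTBP1 represses Ptbp2, and the Ptbp1 values were 633.7, 661.1 and 592.4 TPM among controls and 658, 727.3 and 664.8 TPM in the others, which overlapped. The ratio of Ptbp2 to Ptbp1 in TPM was 0.276, 0.266 and 0.256 among controls and 0.190, 0.167 and 0.175 in the cKO-labelled libraries, with no overlap. This ratio uses the same Ptbp2 values and is no separate result.

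Ptbp3 (ENSMUSG00000028382.15, chromosome 4, 59471868 to 59549364, minus strand), the PTB gene best known in blood cells, had a log2 fold change of 0.28 (standard error 0.13, adjusted p = 0.4333, edgeR). Its normalised counts did not overlap, at 129.8, 141.5 and 134.1 CPM among controls and 193.4, 144.9 and 151.4 CPM in the cKO-labelled libraries. In TPM the groups overlapped, with 38.9, 44.3 and 41.2 against 57.3, 43.5 and 47.9. The highest value in both units was that of library 1 of the cKO-labelled group, which also had the most endothelial transcripts. That library's red cell transcripts were highest too, at 33200 TPM over 6 genes. Without that library the Ptbp3 log2 fold change was 0.13. The part of endothelial or red cells in the Ptbp3 value was not tested.

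Rbfox1 was near the limit of detection in the maxillary process, with 2, 8 and 6 counts among controls and 24, 16 and 11 counts in the cKO-labelled libraries. The log2 fold change was 1.46 (95% interval 0.07 to 2.86, adjusted p = 0.3945, edgeR). In TPM the groups overlapped, at 0.070, 0.259 and 0.658 against 2.002, 0.519 and 0.336. Celf2 and Mbnl2 were uneven among replicates. Celf2 had 6.48, 12.1 and 12.1 TPM among controls and 10.3, 6.35 and 2.998 TPM in the others, with a log2 fold change of -0.46 and a 95% interval from -1.48 to 0.57. Mbnl2 (ENSMUSG00000022139.17, chromosome 14, 120275669 to 120431697, plus strand) had 25.2, 28.1 and 40.2 TPM against 42.8, 27.4 and 25.8 TPM. Library 1 of the cKO-labelled group was the highest of its group for Rbfox1, Celf2 and Mbnl2. Without it the Mbnl2 log2 fold change turned from 0.08 to -0.21, and that of Celf2 went to -1.05. The Celf2 value was -0.15 without library 3 of the cKO-labelled group and -0.22 without control library 3. Mbnl1, Mbnl3, Ptbp1 and Celf1 had log2 fold changes of 0.11 to 0.12 and Rbfox2 had -0.07, all with overlapping groups.

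**Figure D2:**
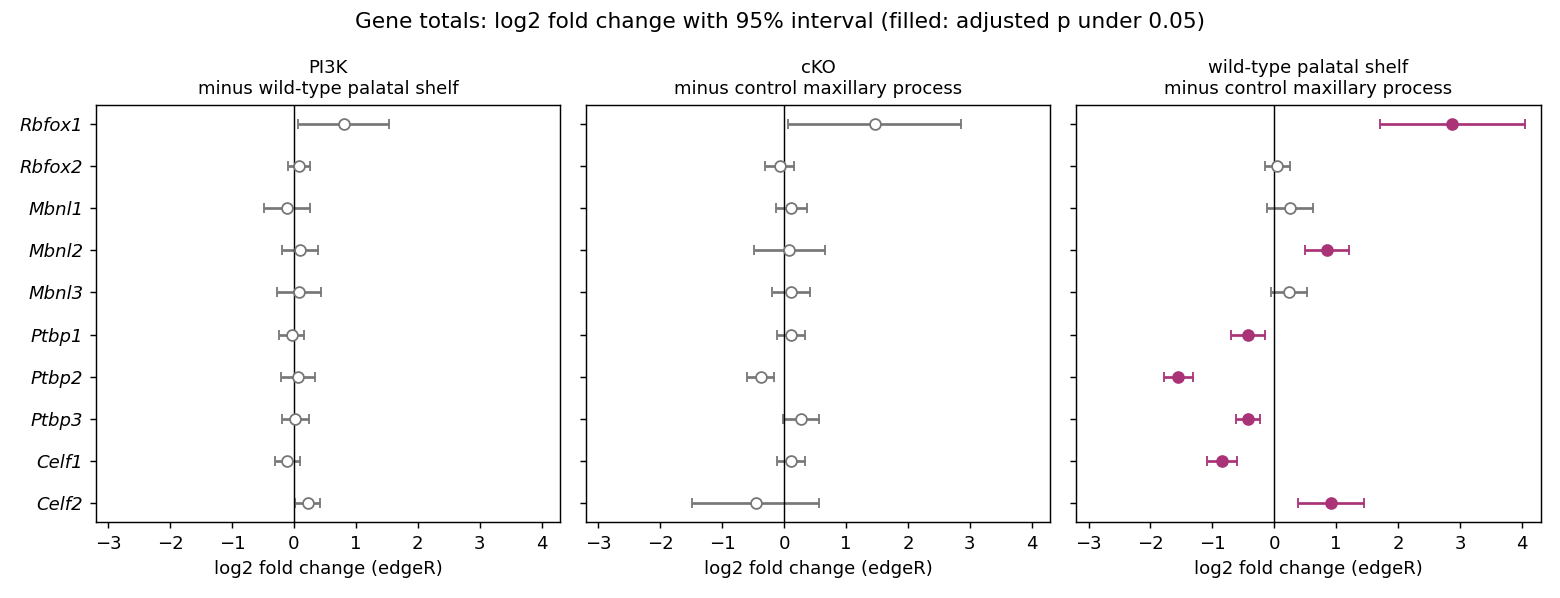
Log2 fold change of gene totals (x axis, edgeR, 3 libraries against 3) with 95% interval for the 10 genes in the 3 comparisons, filled where the adjusted p was under 0.05. No point is filled in either genotype comparison, and 7 of 10 are filled between the wild-type palatal shelf and the control maxillary process.

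The third comparison set wild-type palatal shelves at day E13.5 against control maxillary processes at day E11.5. It shares its libraries with both genotype comparisons, so its values are given beside theirs only as values. The 2 tissues differ in region, stage, the floxed Srsf3 allele, the deposited table and the sequencing lane, and these cannot be told apart. Of the 10 genes, 7 passed the false discovery rate of 0.05 in edgeR, where 50.6% of the 15752 genes tested did, so that passing was common. Rbfox1, Mbnl2 and Celf2 were higher in the palatal shelf, as were 27.1% of all genes, and Ptbp1, Ptbp2, Ptbp3 and Celf1 were lower, as were 23.4%. The same 7 had groups that did not overlap, against 62.1% of all genes. The median absolute log2 fold change was 0.64 for the 10 and 0.45 for all genes.

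Ectoderm genes differed strongly between the tissues. The summed TPM of Krt5, Krt14, Krt15, Epcam, Cdh1, Trp63, Cldn6 and Esrp1 was 584.3 to 762.2 in wild-type palatal shelves and 1.1 to 5.5 in control maxillary processes, and all 8 were called higher. In the PI3K libraries the sum ran from 309.6 to 782.5 TPM, and in those labelled Srsf3 cKO from 5.8 to 13.1 TPM. Ectoderm transcripts were thus present in the palatal shelf libraries despite the trypsin digestion, so these libraries were not mesenchyme alone. Transcripts of 6 red cell genes ran the other way, at 1837 to 4635 TPM in the palatal shelf and 11500 to 19410 TPM in the maxillary process. Endothelial genes summed to 194.4 to 220.5 TPM in the palatal shelf and 141.6 to 151.3 TPM in the maxillary process. Macrophage genes summed to 30.0 to 85.1 TPM and 17.9 to 22.8 TPM. Neuron genes summed to 29.1 to 41.5 TPM in the palatal shelf and 24.3 to 127.4 TPM in the maxillary process. Of 7 tested, 4 were called higher and 2 lower in the palatal shelf (edgeR). Neural crest glia genes summed to 21.2 to 27.3 TPM and 38.4 to 57.8 TPM, with 1 called higher and 3 lower of 5 tested. The part of these other cells in the values of the 10 genes was not tested.

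All 3 PTB genes were lower in the palatal shelf in counts, and in TPM Ptbp1 and Ptbp2 were lower while Ptbp3 was at 0.12 on the log2 scale and did not pass (limma). Ptbp2 had 77.6, 84.5 and 70.8 TPM there against 175, 175.5 and 151.8 TPM in the maxillary process, and the groups lay far apart. Its log2 fold change was -1.55 (standard error 0.10, adjusted p = 6.58e-05, edgeR), which was a 2.93-fold lower level. Ptbp1 (ENSMUSG00000006498.16, chromosome 10, 79854427 to 79864771, plus strand) had 479.6, 569.6 and 519.2 TPM against 633.7, 661.1 and 592.4 TPM, also without overlap. Its log2 fold change was -0.42 (standard error 0.12, adjusted p = 0.0191, edgeR). The Ptbp1 call was lost without wild-type library 1 (adjusted p = 0.0600), wild-type library 3 (0.0779) or control library 2 (0.0657), at log2 fold changes of -0.35, -0.40 and -0.41. Of the 31-base words of the Ptbp1 transcripts, 11.1% also occur in the gene Gm4900, which held 0 to 5 counts per library. On the opposite strand, exons of Plppr3 (1751 to 4778 counts per library) overlap 5.3% of Ptbp1 exonic bases, those of E130317F20Rik (175 to 535.4 counts) 6.2% and those of Gm17134 (0 to 12.1 counts) 9.2%. Whether the counting used strand is not given in the sources used here.

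The call for Ptbp3 depended on the unit. In counts Ptbp3 was lower in the palatal shelf (log2 fold change -0.43, standard error 0.08, adjusted p = 0.0046, edgeR). In TPM it had 41.6, 43.2 and 50.9 in the palatal shelf and 38.9, 44.3 and 41.2 in the maxillary process, and limma on log2(TPM + 1) gave 0.12 with an adjusted p of 0.3935. On that scale the median of all genes tested was 0.16, against 0.03 in counts. Counts per gene grow with transcript length and TPM does not, and the ratio of the 2 units for Ptbp3 is described below.

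Among the CELF genes, Celf1 (ENSMUSG00000005506.16, chromosome 2, 90940382 to 91019497, plus strand) was lower and Celf2 higher in the palatal shelf. Celf1, the widely expressed family member, had 67.2, 77.1 and 74.6 TPM against 130.5, 112.4 and 113.6 TPM, with no overlap. Its log2 fold change was -0.85 (standard error 0.10, adjusted p = 0.000721, edgeR). Celf2 had 21.3, 19.7 and 19.2 TPM against 6.48, 12.1 and 12.1 TPM, and again the groups were apart. Its log2 fold change was 0.92 (standard error 0.23, adjusted p = 0.0130, edgeR). The ratio of Celf1 to Celf2 in TPM was 3.16, 3.92 and 3.88 in the palatal shelf and 20.1, 9.25 and 9.36 in the maxillary process. Exons of the opposite-strand gene Gm26565 cover 7.58% of Celf2 exonic bases, and that gene held 0 to 2 counts per library.

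Of the MBNL genes only Mbnl2 passed in counts. It had 71.3, 61.2 and 75.8 TPM in the palatal shelf and 25.2, 28.1 and 40.2 TPM in the maxillary process, with no overlap. The log2 fold change was 0.85 (standard error 0.15, adjusted p = 0.0033, edgeR). Control library 3, with its neuron transcripts, was the highest control, and without it the value was 1.02. Mbnl1 (ENSMUSG00000027763.13, chromosome 3, 60472830 to 60629750, plus strand) had 52.8, 36.7 and 46.1 TPM against 23.4, 26.2 and 34.9 TPM. In counts its log2 fold change was 0.25 with an adjusted p of 0.224 (edgeR). In TPM it passed, at 0.67 with an adjusted p of 0.0206 (limma on log2(TPM + 1)), and it also passed in counts without wild-type library 2 (0.41, adjusted p = 0.0363, edgeR). Mbnl3 (ENSMUSG00000036109.17, chromosome X, 51117269 to 51206532, minus strand), which is best known in proliferating and regenerating cells, had a log2 fold change of 0.23 (adjusted p = 0.1599, edgeR). It passed without wild-type library 1 (0.37, adjusted p = 0.0333, edgeR).

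Of the RBFOX genes, Rbfox1 passed and Rbfox2 did not. Rbfox1 was higher in the palatal shelf by 2.88 on the log2 scale (standard error 0.50, adjusted p = 0.0029, edgeR), from 2, 8 and 6 counts in the maxillary process to 95, 53 and 77 counts. The 95% interval was wide, from 1.71 to 4.05, with the lower group at 8 counts or fewer. Rbfox2 (ENSMUSG00000033565.18, chromosome 15, 77078990 to 77307004, minus strand) had 162.1, 170.7 and 171.2 TPM against 132.5, 147 and 168.4 TPM. Its log2 fold change was 0.05 with a 95% interval from -0.15 to 0.26, and the groups overlapped. Rbfox2 made up 98.1% to 99.95% of the summed TPM of the 2 RBFOX genes in all 12 libraries.

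Shares within a family do not depend on depth. Ptbp1 held 74.8% to 82.2% of the summed TPM of the 3 PTB genes in every library. Ptbp2 held 12.96%, 12.12% and 11.04% in wild-type palatal shelves, 10.8%, 14.2% and 13.1% with the PI3K allele, 20.7%, 19.9% and 19.3% in control maxillary processes, and 14.88%, 13.61% and 14.04% in the cKO-labelled libraries. The control maxillary process was the group that stood above the other 3. This share restates the Ptbp2 values given above, and the Ptbp2 total was not called between the maxillary process groups. Celf2 held 24.0%, 20.3% and 20.5% of the TPM of the 2 CELF genes in wild-type palatal shelves and 26.3%, 25.2% and 22.1% with the PI3K allele. Its share in the maxillary process was 4.73%, 9.75% and 9.65% among controls and 7.73%, 4.59% and 2.22% in the cKO-labelled libraries. The summed TPM of the 3 MBNL genes was 128.4 ± 12.5 in wild-type palatal shelves and 69.6 ± 13.7 in control maxillary processes, and that of the 3 PTB genes was 645.7 ± 49.5 and 838 ± 48.5 (SD, n = 3 each).

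**Figure D3:**
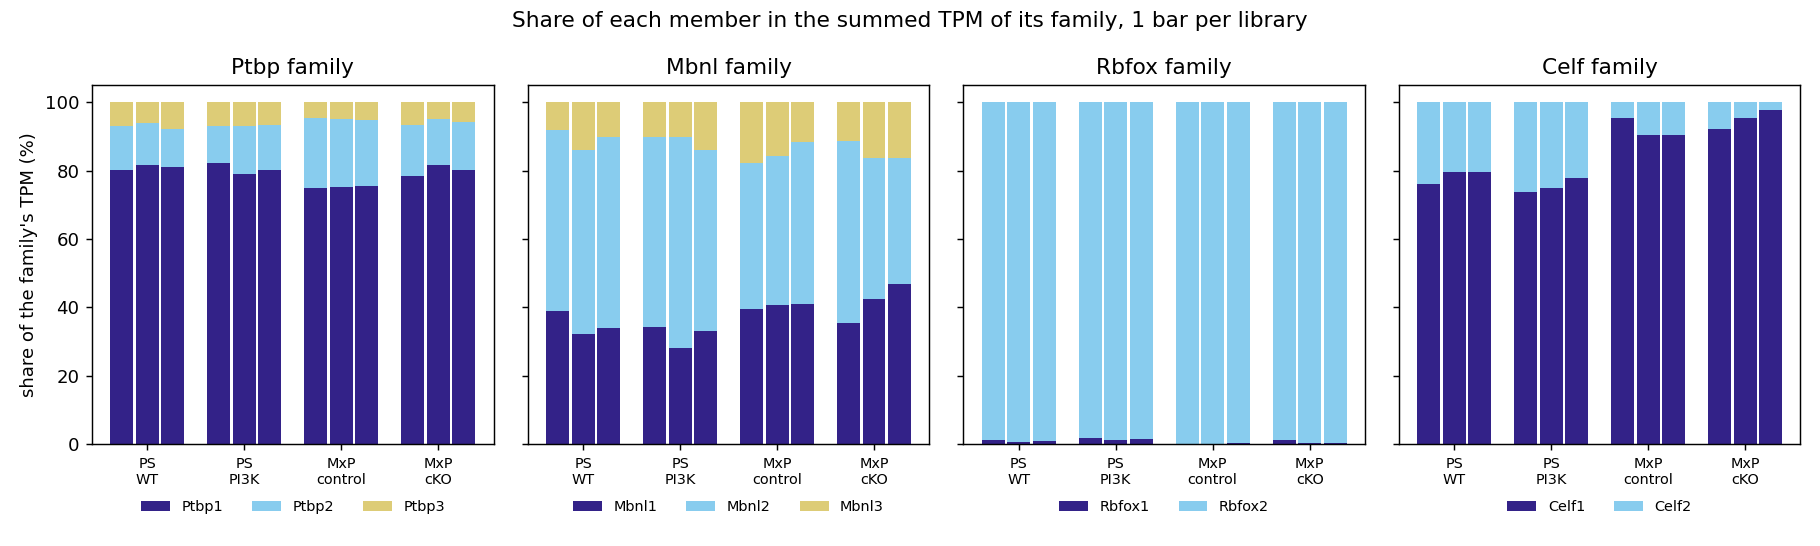
Share (y axis, %) of each gene in the summed TPM of its family, 1 stacked bar per library, for palatal shelf (PS) and maxillary process (MxP) groups. The Ptbp2 share lies between 19.3% and 20.7% in the control maxillary process and at 14.9% or less in the other 9 libraries, and the Celf2 share is at least 20.3% in all 6 palatal shelf libraries and at most 9.75% in the maxillary process.

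The estimated count divided by TPM was used as an indirect measure of the mix of transcripts. This ratio is proportional to the effective length of the transcripts that a gene uses, and it was set relative to the median gene of the same library. It was tested with limma on the log2 scale, centred on the median gene, for genes with at least 50 counts in every library compared. In the palatal shelf 0 of 10 genes were called between genotypes (limma, adjusted p at least 0.9979), where 0.00775% of 12907 genes were called. At an unadjusted p under 0.05 there were 0 of the 10, against 3.89% of all genes. The 1 gene called was Pdgfra itself (-0.58 on the log2 scale). The shifts of the 10 ran from -0.12 (Rbfox1) to 0.06 (Ptbp3).

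In the maxillary process 9 of the 10 genes could be tested, Rbfox1 being under 50 counts, and 0 were called, where 0.00909% of 11002 genes were called (limma). At an unadjusted p under 0.05 there were 2, Rbfox2 at -0.04 and Celf1 at -0.05 on the log2 scale, against 5.13% of all genes. The Rbfox2 ratio was 1.63, 1.62 and 1.63 among controls and 1.57, 1.60 and 1.57 in the cKO-labelled libraries, all 3 of the latter being lower. That of Celf1 was 1.76, 1.82 and 1.78 against 1.73, 1.75 and 1.70, also lower in all 3. Groups lay apart for 11.8% of all genes. Srsf3, the floxed gene, was shifted by 0.13 on the log2 scale, higher in the cKO-labelled libraries. Its groups lay apart, but it was not called (adjusted p = 0.8715, limma). The Ptbp2 ratio, for the gene with the lower total, was 0.829, 0.824 and 0.869 against 0.870, 0.834 and 0.903, and these overlapped. The 95% interval of the Ptbp1 shift ran from -0.11 to 0.02, which is wider than the 0.02 that complete skipping of its 34-nt exon would make, so use of that exon was not detectable in this measure. The Rbfox1 ratio, from few counts, was lowest in the library of each group with the highest Rbfox1 TPM, at 0.291 in control library 3 and 0.406 in library 1 of the cKO-labelled group.

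Between the tissues 2 of 9 genes had a shorter effective length in the palatal shelf, where 8.67% of 11093 genes were called in either direction and 2.29% were lower (limma). The Ptbp3 ratio was 1.73, 1.60 and 1.59 in wild-type palatal shelves and 2.13, 2.04 and 2.24 in control maxillary processes, with no overlap. Its shift was -0.38 on the log2 scale (standard error 0.05, adjusted p = 0.0318, limma). The Ptbp2 ratio was 0.712, 0.666 and 0.723 against 0.829, 0.824 and 0.869, also apart. Its shift was -0.26 (standard error 0.04, adjusted p = 0.0366, limma). These calls were not stable. That of Ptbp3 was lost when any 1 of the 6 libraries was left out (adjusted p from 0.0531 to 0.1058), at shifts of -0.42 to -0.34. That of Ptbp2 passed only without wild-type library 3 (0.0459) and was lost without any other 1 library, at shifts of -0.29 to -0.23. The groups carrying the other genotypes had ratios of 1.71, 1.74 and 1.68 (PI3K) and 2.16, 2.09 and 2.03 (labelled Srsf3 cKO) for Ptbp3. For Ptbp2 they had 0.738, 0.636 and 0.729 and 0.870, 0.834 and 0.903. The ratios of each tissue were thus separate over 6 against 6 libraries for both genes. Both were picked by their calls in 6 of these libraries. The share of all genes separate in this way was not counted, and at 3 against 3 libraries 44.6% did not overlap.

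The Mbnl1 ratio was 0.990, 0.933 and 0.936 in the palatal shelf and 1.21, 1.25 and 1.03 in the maxillary process, without overlap. Its shift of -0.28 did not pass (adjusted p = 0.09997, limma). Mbnl2 had 1.22, 1.27 and 1.21 against 1.36, 1.31 and 1.39, a shift of -0.14 that did not pass either (adjusted p = 0.0636, limma). Rbfox2 was also apart, at a shift of 0.05 (adjusted p = 0.0775, limma). In all, 5 of 9 genes had groups that did not overlap, against 44.6% of all genes. The shifts of Ptbp1, Celf1, Celf2 and Mbnl3 ran from -0.02 to 0.13 with overlapping groups.

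**Figure D4:**
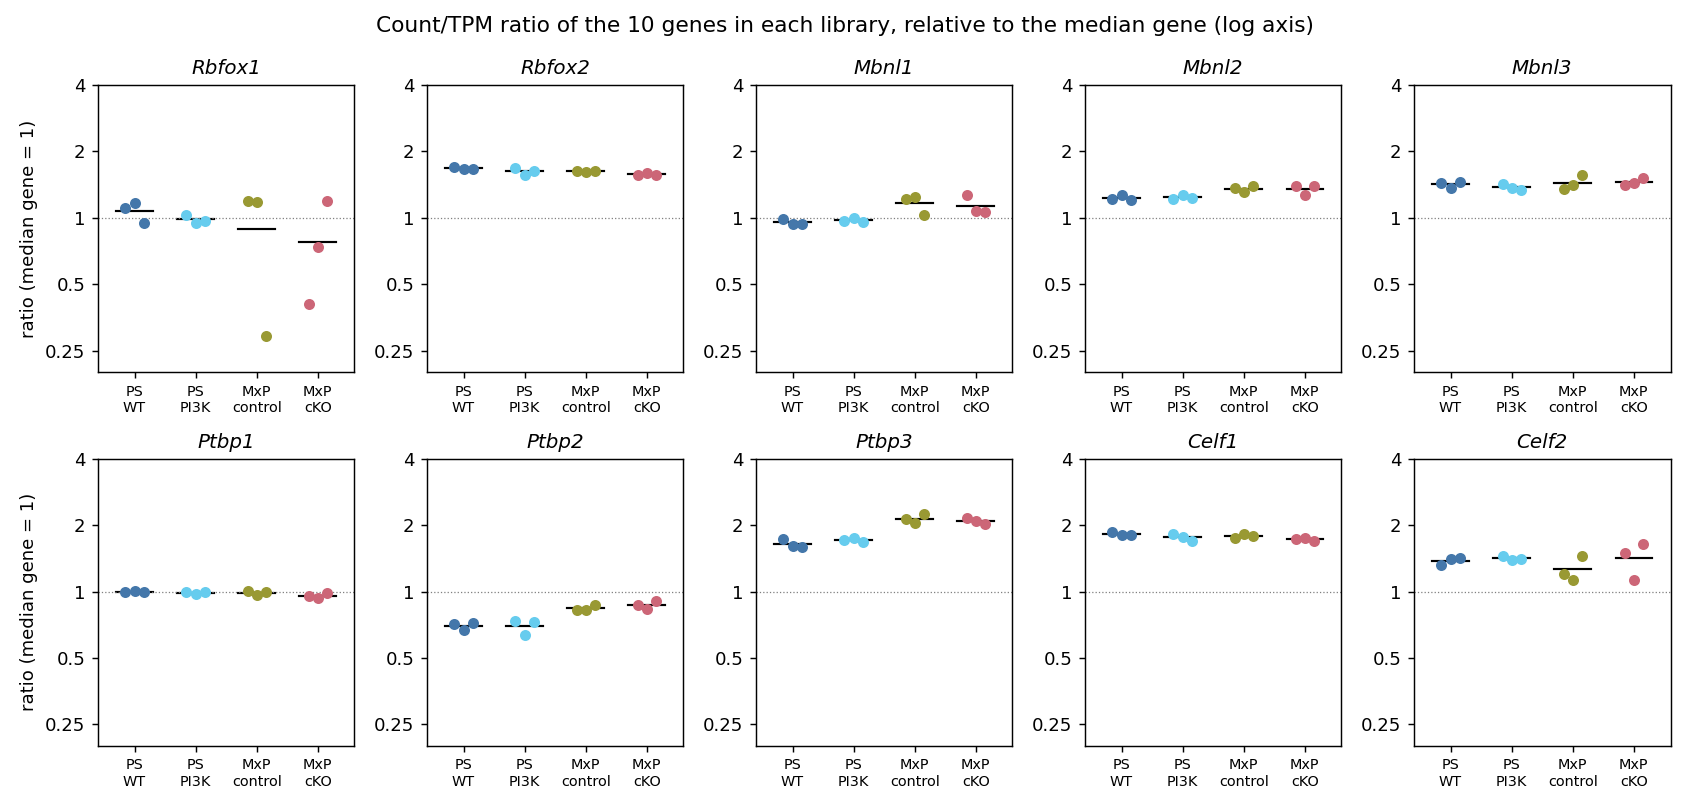
Ratio of estimated count to TPM relative to the median gene of the library (y axis, log scale) for the 10 genes in every library (points) with group means (lines), for palatal shelf (PS) and maxillary process (MxP) groups. Ptbp3 lies at 1.59 to 1.74 in the 6 palatal shelf libraries and at 2.03 to 2.24 in the 6 maxillary process libraries, and Rbfox1 scatters in the maxillary process, where it had 2 to 24 counts.

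The other genes of the pathway were counted from 3 lists. The first held the remaining family members Rbfox3, Celf3, Celf4, Celf5 and Celf6, most of which are neural. Of these, 0 of 4 tested passed between palatal shelf genotypes and 0 of 3 between maxillary process groups (edgeR). Celf4 had 7.44 ± 2.02 TPM with the PI3K allele and 7.54 ± 0.70 TPM in the wild type, and 1.31 ± 0.29 TPM in the cKO-labelled libraries and 1.99 ± 0.39 TPM in the controls (SD, n = 3 each). Celf5 had 1.91 ± 0.44 TPM with the PI3K allele and 2.75 ± 0.46 TPM in the wild type, and Rbfox3 had 1.997 ± 0.71 TPM in the cKO-labelled libraries and 1.52 ± 0.43 TPM in the controls (SD, n = 3 each). Between the tissues 2 of 3 tested were higher in the palatal shelf, Celf4 by 1.61 (adjusted p = 0.000324) and Celf5 by 1.39 (adjusted p = 0.0452) on the log2 scale (edgeR), where 27.1% of all genes were higher.

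The second list held 10 partners of PTB and RBFOX proteins: PTB co-repressors such as Raver2 and Matr3, and proteins of the large assembly of splicing regulators that carries RBFOX, such as Hnrnpm, Hnrnph1 and Ddx5. Of these 0 of 10 passed in either genotype comparison (edgeR). Ddx5, an RNA helicase, had log2 fold changes of -0.01 with the PI3K allele and -0.11 with the Srsf3 cKO label, and Hnrnph1 had -0.01 and -0.06. Between the tissues 8 of 10 were lower in the palatal shelf, where 23.4% of all genes were lower, with a list median of -0.59 against 0.03 over all genes. They included Hnrnpm (-0.90, adjusted p = 0.000606), Hnrnph1 (-0.72, 0.0013) and Ilf2 (-0.68, 0.0021), with Matr3 at -0.62, Ddx5 at -0.62 and Hnrnpc at -0.56 on the log2 scale (edgeR). Hnrnpul2 (adjusted p = 0.0560) and Raver2 (0.939) did not pass.

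The third list held 24 other tissue-regulated splicing factors. Of those tested, 0 of 23 passed with the PI3K allele and 0 of 19 with the Srsf3 cKO label, with 3 and 6 at an unadjusted p under 0.05, against 2.14% and 12.2% of all genes (edgeR). Qk and Khdrbs1, abundant regulators of exon choice, had log2 fold changes of 0.10 and -0.05 with the PI3K allele. With the Srsf3 cKO label Elavl1 had -0.05 and Khdrbs1 had -0.01. Between the tissues 6 of 22 were higher in the palatal shelf, against 27.1% of all genes, and 11 were lower, against 23.4% of all genes. The epithelial regulators Esrp1 (7.86) and Esrp2 (7.43) were higher by these log2 values, and Esrp1 is also among the ectoderm genes that were all higher there. Rbm47, which is also epithelial, was higher by 2.71, and Rbm24, a regulator of muscle exons, was higher by 4.52. Rbm38 fell by 1.42 and Rbpms2 fell by 0.90 on the same scale.

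Covariation was described within groups, as deviations from each group's mean over the 12 libraries, with no test. Depth and cell make-up also varied between the libraries of a group, and 1 library can carry a high value. Rbfox1 and Mbnl2 varied together (Pearson r = 0.87), as did Mbnl3 and Celf1 (0.86) and Rbfox1 and Celf2 (0.79). Mbnl1 and Ptbp1 varied in opposite directions (-0.76). For each of the 10, the protein-coding gene most like it among 10609 with a mean of at least 5 TPM was named. These were Abca1 for Rbfox1 (r = 0.98), Pcdhga12 for Rbfox2 (0.98), Tbx15 for Mbnl1 (0.95), Vwa8 for Mbnl2 (0.97), Lmnb1 for Mbnl3 (0.99), Nkain1 for Ptbp1 (0.94), Ccdc50 for Ptbp2 (0.94), Fblim1 for Ptbp3 (0.95), Cpsf6 for Celf1 (0.99) and Snx17 for Celf2 (0.97). The highest of 10609 correlations over 12 libraries is large by selection.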

How the data were processed

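The authors deposited estimated counts and TPM per gene for 12 libraries in 4 groups of 3, with palatal shelf and maxillary process libraries in separate tables. Per the submitters' processing notes the tools were STAR 2.7.0, Salmon 1.1.0 and DESeq2 1.28.1 with build mm10. Their roles, the transcript index and the strand setting are not given in the sources used here. The deposited estimated counts were rounded and tested with edgeR 4.0.16 (R 4.3.3; TMM, default filter on low counts, quasi-likelihood test, genotype or tissue as the only term, own 6 libraries per comparison, Benjamini-Hochberg over all genes, threshold 0.05). Between the tissues the counts of both tables were normalised together. CPM values use TMM-scaled totals, as group means from the comparison's own 6 libraries and as single values from all 12. The ratio of estimated count to the deposited TPM was tested with limma 3.58.1 for genes with at least 50 counts. Tests were also run on simulated data without differences in cell make-up between libraries, so that run does not check for such differences. Symbols, coordinates and exons came from GENCODE M21 (53355 of 53392 identifiers matched). Alternatives were other size factors, no filter, limma on TPM with a pseudocount of 1 or 0.1, DESeq2 1.42.0, all 12 libraries in 1 fit, a replicate block, leaving out each library, and other centrings of the ratio. The genes, lists and tests were chosen with earlier results of these data known. All 10 genes are named. From each list the genes past the threshold are named, up to 6 by smallest p, and otherwise the 2 with the highest mean TPM. Not every list member is reported here by name. The p-values set each difference against the spread between these libraries, which was estimated partly from all genes.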

Additional observations from a re-analysis of the deposited data

How the results depend on the processing

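Of 696 values of the 10 genes under the alternatives, 631 kept their direction and their side of the threshold, 41 turned direction, 16 lost a call and 8 gained one. No direction that turned belonged to a gene total called with edgeR, except Ptbp3 between the tissues (0.120 and 0.123 with limma on log2(TPM + 1) and log2(TPM + 0.1), against -0.43). Genes past the threshold in totals were 4 with the PI3K allele in DESeq2 against 0 in edgeR. With the Srsf3 cKO label they were 12 in edgeR, 143 without a filter, 376 in DESeq2, 105 in 1 fit of all 12 libraries and 2 to 29 without 1 library (29 without library 1 labelled Srsf3 cKO).

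For effective length, with the PI3K allele there was 1 gene called, and 28 without centring and 0 to 1 without 1 library. With the Srsf3 cKO label there was 1, and 3 without centring and 0 to 5 without 1 library. Between the tissues there were 962, against 11041 without centring (all higher), 309 with centring on genes of like length, which was chosen after seeing the data, and 4 to 680 without 1 library (4 without control library 2). Ptbp2 and Ptbp3 stayed called with that centring. Without centring, the shifts that turned were, with the Srsf3 cKO label, Rbfox2 0.220, Mbnl1 0.230, Mbnl2 0.255, Ptbp1 0.217, Ptbp3 0.233 and Celf1 0.214, and between the tissues Mbnl1 0.506, Mbnl2 0.648, Mbnl3 0.764, Ptbp2 0.522 and Ptbp3 0.406. An uncentred ratio keeps a factor shared by all genes of a library, because counts grow with depth and TPM does not. These uncentred values are therefore not shifts of transcript mix alone. Centred shifts between the tissues still varied with effective length. Their medians were 0.055 in the shortest of 5 classes of genes and 0.011 in the longest. The centred values may thus also hold more than transcript mix.

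Small uncalled values turned direction when 1 library was left out. With the PI3K allele totals these ranged from -0.25 to 0.078 for Mbnl1, -0.027 to 0.19 for Mbnl2, -0.023 to 0.18 for Mbnl3, -0.078 to 0.039 for Ptbp1 and -0.032 to 0.093 for Ptbp3, which was also -0.0327 and -0.0333 on the TPM scales. With the Srsf3 cKO label Mbnl2 ranged from -0.21 to 0.30, and between the tissues Rbfox2 ranged from -0.028 to 0.073. For effective length the ranges were -0.0040 to 0.037 (Mbnl2) and -0.039 to 0.069 (Ptbp2) with the PI3K allele, -0.12 to 0.020 (Mbnl1), -0.033 to 0.039 (Mbnl2), -0.029 to 0.071 (Mbnl3) and -0.063 to 0.0051 (Ptbp3) with the Srsf3 cKO label, and -0.068 to 0.036 (Mbnl3) between the tissues.

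Whether replicate numbers pair the libraries could not be decided from 3 libraries per group. The correlations of same-numbered libraries were 0.59, 0.20 and -0.23 for the palatal shelf and 0.06, 0.11 and 0.26 for the maxillary process. Those of differently numbered libraries ran from -0.62 to 0.48 and from -0.28 to 0.21. With the replicate number as a block, totals gave 0, 40 and 6835 calls and effective lengths 0, 0 and 0 for the PI3K, Srsf3 cKO and tissue comparisons, and Ptbp2 (adjusted p = 0.1158) and Ptbp3 (0.1273) lost their effective length calls between the tissues in limma. Depth limits Rbfox1 in the maxillary process, at 2 to 24 counts.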
